A study of Homo sapiens with 9 samples.

Results

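The transcripts of 10 transcription factors that set B cell and plasma cell identity were followed in OPM-1, an established human multiple myeloma cell line. The factors were taken by name and make up 10 of the 38478 gene rows of the deposited table: IRF4, PRDM1 and XBP1, which drive the plasma cell programme; POU2AF1, IKZF1 and IKZF3, which act in B cells and plasma cells; and SPIB, BACH2, BCL6 and PAX5, which belong to B cell stages. Polyadenylated RNA was sequenced from 9 libraries in 3 groups of 3 independent biological replicates, all of one cell line labelled WT and grown in RPMI with 10% FBS. The cells stably expressed RNAs against luciferase (gLuc, the control), against FBXW7 (gFBXW7), or against FBXW7 and KMT2D together (gFBXW7_gKMT2D). FBXW7 is the substrate-binding part of a ubiquitin ligase, and KMT2D is a histone H3 lysine 4 methyltransferase that acts at enhancers. The labels used here do not state how the RNAs act on their targets, nor whether a group is 1 clone or a pool, and no group carried RNA against KMT2D alone. The study's title names FBXW7 loss and combined FBXW7 and KMT2D loss, and each group was compared with the others.

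When a B cell becomes a plasma cell, PRDM1 (BLIMP-1) represses B cell genes, PAX5 among them, while PAX5, BCL6 and BACH2 hold back PRDM1 and the plasma cell state. IRF4 is needed for plasma cells and for the survival of myeloma cells, and XBP1 expands the endoplasmic reticulum for antibody secretion. IKZF1 (Ikaros) and IKZF3 (Aiolos) are zinc finger proteins that lenalidomide-type drugs send to degradation through the cereblon ligase.

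Reads per library that fell on genes numbered 16337492 to 27076242. Levels are given as RPKM, reads scaled to gene length and library depth, when genes are compared with each other. CPM, used when libraries are compared for 1 gene, scales counts to library depth and a TMM scaling factor of each library. The RPKM values do not include that factor. FBXW7 had 50.2 ± 3.21 CPM in gLuc, 54.5 ± 1.09 in gFBXW7 and 54.3 ± 15.1 in gFBXW7_gKMT2D (SD, n = 3), KMT2D had 67.9 ± 32.7, 57.7 ± 8.28 and 61.2 ± 40.8, and neither passed the test in any comparison, so the transcript levels do not check the labels. The library gFBXW7_gKMT2D 3 stood apart in makeup: ribosomal protein transcripts took 11.4% of its counts against 5.13 to 8.74% in the other 8 libraries, and genes over 5 kb took 23.7% against 26.0 to 33.8%. Plasma cell markers were high, with JCHAIN, the joining chain of secreted antibodies, at a mean of 6702 RPKM, the receptor TNFRSF17 (BCMA) at 408, MZB1 at 387, SDC1 (CD138) at 91.1, SLAMF7 at 17.7 and CD38 at 11.3. Of the B cell surface markers, MS4A1 (CD20) had 17 counts over all 9 libraries, CD79A 10 and CD22 2. CD79B, also a B cell surface gene, was expressed at a mean of 16.0 RPKM, between CD38 and SLAMF7. Of 30 markers of T, natural killer, myeloid, erythroid, platelet, stromal, endothelial and epithelial cells, 13 had no count in any library and 3 were abundant enough to test; the haemoglobin gene HBB, at a mean of 34.0 CPM, made up most of their sum, whereas its partner HBA1 had 1 count.

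Promoter sequences are shown for 3 factors: SPIB, the factor with the widest difference between groups, and XBP1 and IRF4, those with the highest transcript levels. They are from RefSeq, build GRCh38.p14, which matched 8 of the 10 factors; POU2AF1 and IKZF3 were not matched. Each is the 250 bases before a start site, 5′ to 3′ on the gene's strand, and counted motif positions are negative upstream of the start. SPIB lies on the + strand (chr19:50418688-50418937), IRF4 on the + strand (chr6:391502-391751) and XBP1 on the − strand (chr22:28800570-28800819). Capitals mark a TATA box in SPIB and IRF4 and an endoplasmic reticulum stress element in XBP1.
SPIB: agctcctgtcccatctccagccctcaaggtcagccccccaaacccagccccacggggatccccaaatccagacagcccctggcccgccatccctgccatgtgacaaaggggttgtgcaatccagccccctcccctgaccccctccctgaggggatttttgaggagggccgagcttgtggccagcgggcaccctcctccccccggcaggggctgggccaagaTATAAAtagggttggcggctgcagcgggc
IRF4: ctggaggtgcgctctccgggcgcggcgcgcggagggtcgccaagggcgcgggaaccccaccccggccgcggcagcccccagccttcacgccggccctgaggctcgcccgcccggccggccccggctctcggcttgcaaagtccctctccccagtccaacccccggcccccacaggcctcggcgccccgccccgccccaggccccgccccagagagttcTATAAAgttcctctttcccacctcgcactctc
XBP1: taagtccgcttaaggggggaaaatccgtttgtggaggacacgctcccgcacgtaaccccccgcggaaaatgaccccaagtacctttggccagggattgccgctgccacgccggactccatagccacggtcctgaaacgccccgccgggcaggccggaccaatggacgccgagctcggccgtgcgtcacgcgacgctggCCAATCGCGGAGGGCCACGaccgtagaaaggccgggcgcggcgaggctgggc

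The TATA box searched for, TATAAA on either strand, lay at −29 to −24 of SPIB and at −32 to −27 of IRF4, and 11.5% of 35116 RefSeq promoter windows (250 bases before to 50 after the start) held it anywhere. Among the other factors with a promoter it was present only farther from the start, at −202 to −197 in a window of IKZF1, where an overlapping match lies on the other strand, and at −238 to −233 in that of PAX5. The stress element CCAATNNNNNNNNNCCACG, the sequence through which unfolded-protein sensors act, begins with a CCAAT box by its own letters. It was found at −52 to −34 in the XBP1 window shown and in 0.0769% of all windows. The window of another XBP1 start site did not hold it. The SPIB window, with 67.0% G and C and 11 CpG pairs, held no GGAA, the core of sites for ETS factors such as SPIB itself, whereas 95.5% of all windows held one. The 7 other factors with a promoter each had at least one GGAA. The octamer ATGCAAAT, which POU2AF1 binds with its POU partners, the ETS-IRF composite GGAANNGAAA and the PU.1/SPIB site GAGGAAGT were found in none of the windows of the 8 factors, against 1.77%, 2.82% and 2.59% of all windows. A match or its lack describes these letters in these windows only.

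XBP1 and IRF4 led the list of levels in every group, followed by POU2AF1 and then PRDM1. XBP1 (chr22:28794555-28800597, GRCh38, − strand), the transcription factor of the IRE1 branch of the unfolded protein response, was the highest at a mean of 517 RPKM over the 9 libraries, above 99.5% of the gene rows with any read. Its RPKM was 603, 541 and 507 in gLuc, 578, 498 and 534 in gFBXW7, and 473, 423 and 496 in gFBXW7_gKMT2D. All 3 gFBXW7_gKMT2D libraries lay below every other library on this scale, but on the CPM scale used for the tests the ranges overlapped, at 861, 707 and 1058 against 866 to 1129 in gLuc and 906 to 1085 in gFBXW7. IRF4 (chr6:391739-411447, + strand) followed at a mean of 153 RPKM, above 98.4% of detected rows, with 139, 190 and 209 in gLuc, 126, 142 and 152 in gFBXW7, and 145, 202 and 70.8 in gFBXW7_gKMT2D. The lowest of these was gFBXW7_gKMT2D 3, the library with the high ribosomal protein share, while another library of its group was among the highest. PRDM1 (chr6:106086320-106109939, + strand) had 24.9, 29.4 and 33.2 RPKM in gLuc, 22.0, 25.9 and 27.1 in gFBXW7, and 26.9, 33.9 and 27.1 in gFBXW7_gKMT2D. The groups overlapped on this scale, and in the annotation ATG5, at a mean of 19.1 RPKM, overlaps PRDM1 on the opposite strand. The library kit kept strand, but the strand setting of the counting is not given in the sources used here, so some PRDM1 counts could belong to ATG5.

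The factors shared by B cells and plasma cells were also expressed. POU2AF1 (OCA-B; chr11:111352252-111455630, − strand), a coactivator of octamer-binding factors at immunoglobulin genes, averaged 112 RPKM and ranged from 78.2 in gFBXW7_gKMT2D 3 to 139 in gLuc 3. IKZF3 (chr17:39757715-39864188, − strand) averaged 14.1 RPKM with a range of 11.2 to 17.1, and IKZF1 (chr7:50304068-50405101, + strand) averaged 7.56 with a range of 3.93 to 11.2. IKZF3 was above IKZF1 in 9 of 9 libraries. The remaining Ikaros family genes had lower means than IKZF1, with IKZF5 at 5.12, IKZF4 at 0.820 and IKZF2 at 0.323 RPKM.

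The B cell factors formed the lower end. BACH2 (chr6:89926529-90296908, − strand), a repressor that delays plasma cell differentiation, had 1.16, 1.75 and 1.99 RPKM in gLuc, 1.36, 1.45 and 1.45 in gFBXW7, and 1.47, 1.92 and 1.49 in gFBXW7_gKMT2D. SPIB (chr19:50418938-50431313, + strand), an ETS factor of B cells and plasmacytoid dendritic cells, had 1.49, 1.65 and 1.28 RPKM in gLuc, 1.59, 1.70 and 1.39 in gFBXW7, and 0.716, 0.680 and 0.537 in gFBXW7_gKMT2D. BCL6 (chr3:187721377-187745727, − strand), the repressor that maintains germinal centre B cells, averaged 0.0688 RPKM from 91 counts over all 9 libraries. PAX5 (chr9:36833275-37034185, − strand), the factor that commits cells to the B lineage, averaged 0.00579 RPKM and had 11 counts in all. Its counts were 2, 1 and 1 in gLuc, 1, 1 and 0 in gFBXW7, and 1, 1 and 3 in gFBXW7_gKMT2D; the 0 allows up to 0.156 CPM in that library, for counting error only, and PAX5 was too low to test.

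By RPKM the order from high to low was XBP1, IRF4, POU2AF1, PRDM1, IKZF3, IKZF1, BACH2, SPIB, BCL6 and PAX5 in gLuc and gFBXW7_gKMT2D. In gFBXW7 BACH2 and SPIB changed places. Neighbours in this order were separated in every library except in 2 cases: IRF4 was above POU2AF1 in 8 of 9 libraries, and BACH2 was above SPIB in 6 of 9. IKZF3 at its lowest and IKZF1 at its highest both rounded to 11.2 RPKM, so these 2 ranges all but touched.

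**Figure D1:**
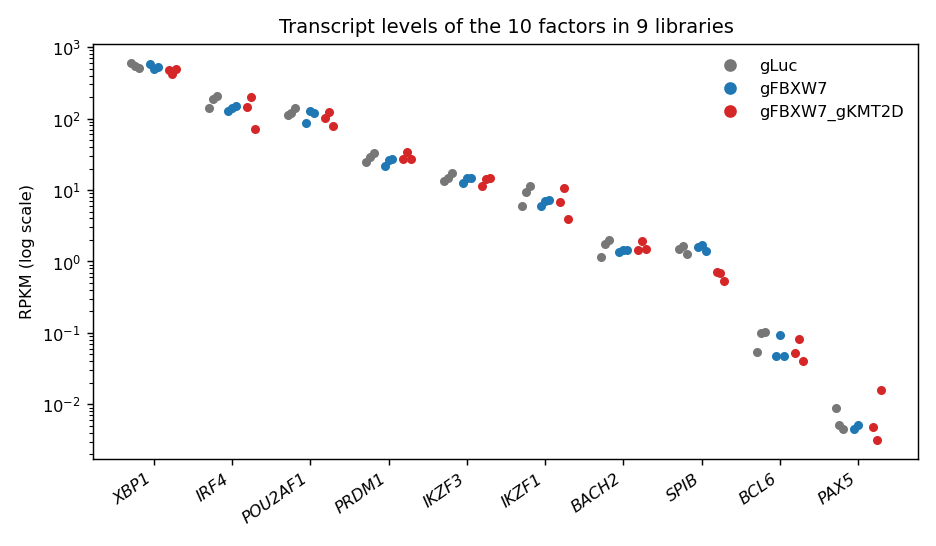
Deposited RPKM (log scale) of the 10 factors, ordered by mean level; each point is 1 library, coloured by group, and the single PAX5 value of 0 (gFBXW7 3) cannot be drawn. XBP1, IRF4 and POU2AF1 lie at 70.8 RPKM or above in every library. The 3 gFBXW7_gKMT2D points of SPIB (0.537 to 0.716) sit apart from the other 6 (1.28 to 1.70). Those of XBP1 (423 to 496) lie just below its other 6 (498 to 603).

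The comparison of gFBXW7_gKMT2D with gFBXW7 bears on the addition of the KMT2D RNA. No factor passed edgeR's quasi-likelihood test at an adjusted p of 0.05, adjusted over all 13262 genes tested, of which 0.0603% (8 genes) passed. SPIB came nearest and had the widest difference. Its level was 5.78, 6.01 and 4.79 CPM under gFBXW7 but 2.53, 2.21 and 2.22 CPM under gFBXW7_gKMT2D, so all 3 libraries of the combined group lay below all 3 of the other. The log2 fold change was −1.25 (SE 0.19, 95% interval −1.66 to −0.84), a level 2.38-fold lower with an interval of 1.79 to 3.16, and the adjusted p was 0.083 in edgeR's quasi-likelihood test. By unadjusted p, 5.6e-05, SPIB ranked 9th of all genes tested in that fit.

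Against gLuc, SPIB in gFBXW7_gKMT2D gave a similar value. The control libraries had 5.41, 5.60 and 4.24 CPM, again all above the 3 gFBXW7_gKMT2D libraries, whose mean was 2.32 ± 0.180 against 5.08 ± 0.735 (SD, n = 3). The log2 fold change was −1.13 (SE 0.19, 95% interval −1.54 to −0.72), or 2.19-fold lower with an interval of 1.65 to 2.91, with an adjusted p of 0.17 in edgeR's quasi-likelihood test, where 0.0528% of genes (7) passed. Between gFBXW7 and gLuc, SPIB differed by 0.12 (SE 0.18, 95% interval −0.27 to 0.51; adjusted p = 0.96 in edgeR), and the groups overlapped. The gFBXW7_gKMT2D libraries are shared by the comparisons with gFBXW7 and with gLuc, so these SPIB values are not separate observations of that group. In bulk RNA, fewer cells with SPIB transcripts and less SPIB RNA per cell cannot be told apart.

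The SPIB values rest on few reads. The counts were 102, 99 and 87 in gLuc, 107, 101 and 94 in gFBXW7, and 45, 65 and 31 in gFBXW7_gKMT2D. Exact 95% Poisson intervals, for counting error only, were 21.1 to 44.0 for the 31 counts, 50.2 to 82.8 for the 65 counts and 69.7 to 107 for the 87 counts; the last 2 overlap as raw counts, but the library with 65 counts was also the deepest, at 27076242 reads. On the CPM scale the spread within a group was at most 0.735 CPM (SD) and the difference between the gFBXW7 and gFBXW7_gKMT2D means, 5.53 and 2.32 CPM, was larger than it.

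Whether SPIB passed the threshold turned on the setting, while the size of its difference did not. Over 17 other settings the log2 fold change lay between −1.35 and −1.17 against gFBXW7 and between −1.24 and −1.06 against gLuc. SPIB passed in both comparisons with DESeq2 (adjusted p = 0.00028 against gFBXW7 and 0.0029 against gLuc), which called 0.141% and 0.143% of the genes it adjusted over. Without the filter on low counts its adjusted p in edgeR was 0.007 and 0.034, with 0.127% and 0.0811% of genes passing. With 1 surrogate variable, an estimated axis of hidden variation, the adjusted p in edgeR was 0.0024 and 0.007, with 0.943% and 0.407% passing. It did not pass under the remaining 14 settings in either comparison. Without gFBXW7_gKMT2D 3 the values were −1.22 and −1.11, with adjusted p = 0.15 and 0.22 in edgeR.

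**Figure D2:**
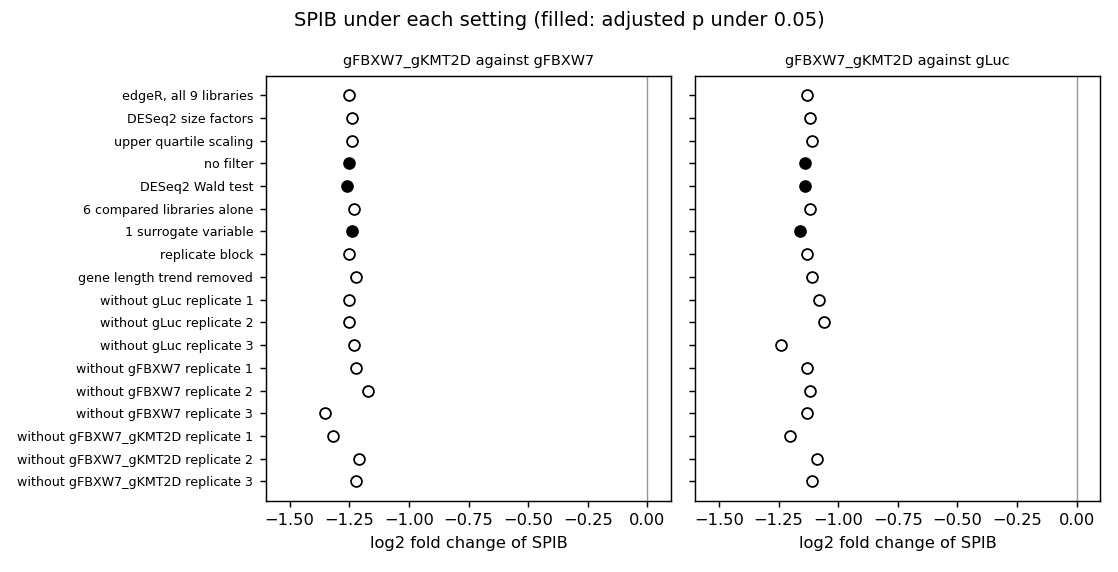
log2 fold change of SPIB in gFBXW7_gKMT2D against gFBXW7 (left) and against gLuc (right) under the edgeR fit of all 9 libraries and 17 other settings; filled points have an adjusted p under 0.05. All values lie between −1.35 and −1.06, and 3 settings in each comparison are filled.

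Library makeup and other cell types were set beside the SPIB values. The Pearson correlation of SPIB log2 CPM with the ribosomal protein share over the 9 libraries was −0.21, and with the share of genes over 5 kb it was 0.01, both descriptions of libraries that share groups. With the share of mitochondrially encoded transcripts it was −0.60; that share was 3.63%, 3.67% and 2.04% in gFBXW7_gKMT2D, 1.64 to 3.33% in gLuc and 0.638 to 1.54% in gFBXW7, and its part in the result was not tested. The summed CPM of the 30 markers of other cell types overlapped between groups, at 25.0 to 43.3 in gLuc, 36.5 to 46.5 in gFBXW7 and 26.1 to 46.0 in gFBXW7_gKMT2D.

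The genes around SPIB that were abundant enough to test had smaller differences. Among genes within 100 kb, looked at after the SPIB values were known, these were 4. POLD1, a DNA polymerase subunit that ends just upstream of SPIB, differed by −0.15 (SE 0.13) against gFBXW7 and −0.10 (SE 0.13) against gLuc. NR1H2 differed by −0.04 and 0.02 and EMC10 by −0.20 and −0.10 (SE 0.13 for each value). JOSD2 differed by 0.00 and 0.48 with an SE of 0.40 in both comparisons, which leaves room for a larger difference. None of these passed edgeR's test. MYBPC2, a muscle myosin-binding protein gene and the next gene downstream on the same strand, was too low to test with 19 counts in all, and its values of 0, 0.0339 and 0.0718 CPM in gFBXW7_gKMT2D lay below those of the other 6 libraries, 0.102 to 0.226. In the annotation a read-through locus from POLD1 overlaps SPIB on its own strand and has no row of its own in the table, so reads shared with it cannot be separated from SPIB.

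**Figure D3:**
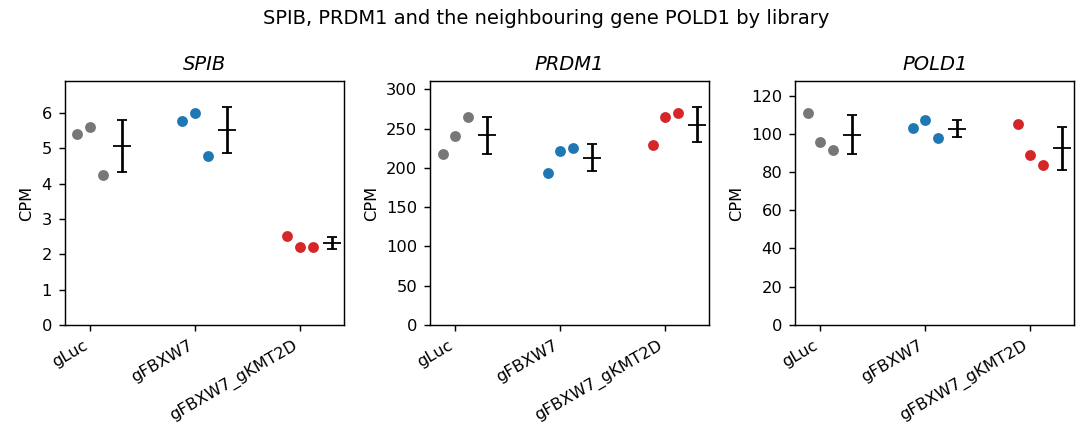
CPM of SPIB, of PRDM1 and of POLD1, the gene next to SPIB, in each library (points), with the group mean and SD (bars, n = 3); each axis starts at 0. SPIB has 2.21 to 2.53 CPM in gFBXW7_gKMT2D and 4.24 to 6.01 elsewhere, PRDM1 is above gFBXW7 in gFBXW7_gKMT2D but overlaps gLuc, and POLD1 overlaps between all groups.

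The 8 other tested factors had smaller differences. Against gFBXW7 they lay between −0.16 for XBP1 and 0.26 for PRDM1. PRDM1 had 229, 265 and 270 CPM in gFBXW7_gKMT2D and 193, 221 and 225 in gFBXW7, without overlap, for a log2 fold change of 0.26 (SE 0.14, 95% interval −0.05 to 0.56; adjusted p = 1.0 in edgeR). BACH2 was likewise higher in all 3 libraries, at 18.3, 22.0 and 21.7 CPM against 17.4, 18.0 and 17.6, a difference of 0.23 (SE 0.17, 95% interval −0.16 to 0.61; adjusted p = 1.0). Of the 9 tested factors, 2 were higher without overlap and 1, SPIB, was lower, beside 4.35% and 5.20% of all tested genes in that comparison. Only SPIB had an unadjusted p under 0.05, against 4.22% of genes. The median log2 fold change was −0.02 over the tested factors and 0.02 over all tested genes.

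Against gLuc the other 8 ranged from −0.44 for BCL6 to 0.08 for PRDM1. POU2AF1 had 544, 613 and 494 CPM in gFBXW7_gKMT2D and 634, 614 and 704 in gLuc, so the groups did not overlap but nearly met at 613 and 614, and the log2 fold change was −0.24 (SE 0.17, 95% interval −0.62 to 0.13; adjusted p = 0.9 in edgeR). The BCL6 difference of −0.44 had an interval of −1.30 to 0.42, the widest of the tested factors, from 7, 17 and 5 counts against 8, 13 and 15. Here 0 of the 9 were higher without overlap and 2 lower, SPIB and POU2AF1, beside 3.28% and 3.69% of all genes, and 1 had an unadjusted p under 0.05 against 3.61%. The factors' median was −0.24 and that of all genes 0.00.

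Between gFBXW7 and gLuc no factor and no gene passed edgeR's test (0% of 13262), no factor had an unadjusted p under 0.05 (1.58% of genes did), and DESeq2 called 1 gene in the table. No factor's libraries were all higher or all lower, against 4.37% and 4.49% of genes. The fold changes ran from −0.40 (SE 0.39) for BCL6 to 0.12 for SPIB, with 8 of 9 not above 0 and a median of −0.15. XBP1 stood at 0.00 (95% interval −0.42 to 0.42). IKZF1 at −0.35 (95% interval −0.95 to 0.26) and IRF4 at −0.31 (−0.90 to 0.28) had intervals that hold both no change and a change of almost 1 log2 unit.

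**Figure D4:**
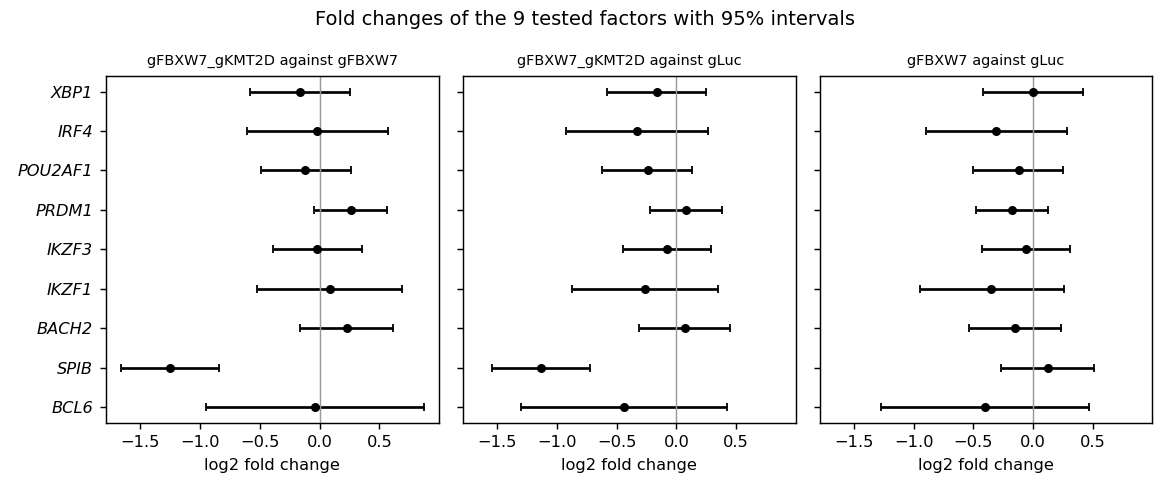
log2 fold change (points) and 95% interval (bars, not adjusted for the number of genes) of the 9 tested factors in the 3 comparisons. The SPIB intervals, −1.66 to −0.84 and −1.54 to −0.72, exclude 0 in both comparisons of gFBXW7_gKMT2D, and every other interval includes 0.

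IRF4 and IKZF1 varied widely within gLuc and gFBXW7_gKMT2D and less within gFBXW7. The SD of log2 CPM was 0.24, 0.10 and 0.60 for IRF4 and 0.39, 0.12 and 0.55 for IKZF1 in gLuc, gFBXW7 and gFBXW7_gKMT2D, beside a span of group means of 0.40 and 0.31. IRF4 had 780, 998 and 1070 CPM in gLuc, 709, 773 and 813 in gFBXW7, and 793, 1015 and 453 in gFBXW7_gKMT2D. IKZF1 had 116, 167 and 197 CPM in gLuc, 115, 130 and 133 in gFBXW7, and 128, 186 and 86.5 in gFBXW7_gKMT2D. The lowest library was gFBXW7_gKMT2D 3 for both genes and the highest was gLuc 3, so the highest level was 2.36 times the lowest for IRF4 and 2.27 times for IKZF1. Their log2 CPM had a Pearson correlation of 0.95 over the 9 libraries and 0.96 after the group means were removed.

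The same libraries also ordered by makeup. Over the 9 libraries the correlation with the ribosomal protein share was −0.97 for IRF4 and −0.98 for IKZF1, and that of IKZF1 with the share of genes over 5 kb was 0.98; the part of library makeup in these levels was not tested. XBP1 went the other way with a correlation of 0.67 with the ribosomal protein share, and of −0.73 with IKZF1. IKZF3 correlated at 0.17 with the ribosomal protein share and at 0.03 with the share of genes over 5 kb. PRDM1 and BACH2 correlated at 0.83 with each other and at −0.19 and −0.30 with the ribosomal protein share. These correlations describe 9 libraries that share groups and depth differences. Without gFBXW7_gKMT2D 3, IRF4 differed by 0.25 and IKZF1 by 0.33 against gFBXW7, in place of −0.02 and 0.09, and by −0.07 and −0.02 against gLuc, in place of −0.33 and −0.26; neither passed edgeR's test. XBP1 then differed by −0.32 in both comparisons, in place of −0.16.

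**Figure D5:**
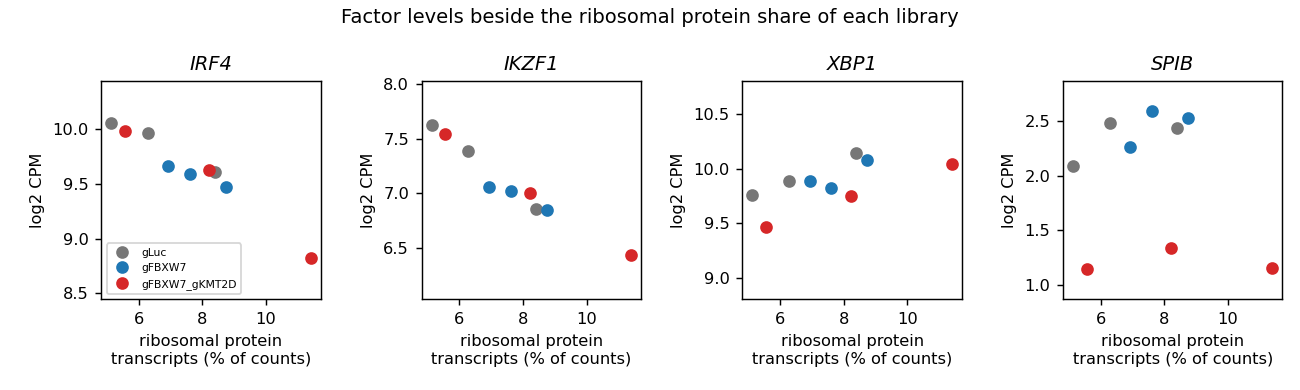
log2 CPM of IRF4, IKZF1, XBP1 and SPIB against the share of counts on ribosomal protein genes. Each point is 1 library and each vertical axis spans 2 log2 units. Points are drawn without a prior count, whereas the r values were computed with the prior count of 2. IRF4 and IKZF1 decline along the share (r = −0.97 and −0.98), with gFBXW7_gKMT2D 3 at 11.4%, and the SPIB points of gFBXW7_gKMT2D lie below those of gLuc and gFBXW7, which overlap.

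The genes whose log2 CPM followed a factor most closely over the 9 libraries were named for the 4 factors whose group means spread the widest, among 9976 other genes (9977 for BCL6) of sufficient abundance. For SPIB these were PTP4A3, a phosphatase, with r = 0.982 and ANXA6, a membrane-binding annexin, with r = 0.979. IRF4 was followed by INVS (0.997) and LOC102724642 (0.992), IKZF1 by MMS22L (0.997) and PARP4 (0.996), and BCL6 by FZD1 (0.892) and UTP14A (0.889). Differences between groups and in library makeup were left in these correlations, and shared regulation was not tested.

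Genes of the programmes these factors belong to were read from lists chosen by function, with earlier results of these data known. Since 0.0603%, 0.0528% and 0% of all tested genes passed in the 3 comparisons, a count of 0 is read as no result about a list. Among 24 plasma cell identity genes, 22 were tested and 0 passed in any comparison. Their median log2 fold change was −0.07 against gFBXW7, −0.14 against gLuc and 0.03 between gFBXW7 and gLuc, beside 0.02, 0.00 and 0.00 over all genes. GPRC5D, an orphan receptor of plasma cells, had the lowest values with 45.5 ± 16.4 CPM in gFBXW7_gKMT2D against 77.1 ± 7.34 in gFBXW7 and 80.7 ± 5.99 in gLuc (SD, n = 3), differences of −0.76 and −0.82 with an adjusted p of 1.0 and 0.9 in edgeR. The highest values were 0.79 (SE 0.61) for TXNDC5 against gFBXW7 and 0.32 (SE 0.31) for SEC11C against gLuc. In these comparisons 6 and 7 of the 22 had positive values, and 16 and 15 had negative ones. Of 30 mature B cell genes, 23 averaged under 0.1 RPKM, 4 had no count, and 6 could be tested, none of which passed, with medians of −0.34, −0.10 and −0.17. TNFRSF13C, the receptor for the survival factor BAFF, had the highest value against gFBXW7 at 0.92 (SE 0.31, adjusted p = 1.0 in edgeR). Its level was 0.925 ± 0.264 CPM in gFBXW7_gKMT2D, 0.469 ± 0.0981 in gFBXW7 and 0.768 ± 0.0521 in gLuc, from 6 to 21 counts per library. TNFRSF13C was also the lowest of the list between gFBXW7 and gLuc, at −0.70 (SE 0.32). In gFBXW7_gKMT2D against gLuc it differed by 0.22 (SE 0.29). The complement receptor CR2 had the lowest value against gLuc, with 0.451 ± 0.119 CPM in gFBXW7_gKMT2D and 0.890 ± 0.0869 in gLuc (SD, n = 3, adjusted p = 0.9 in edgeR's quasi-likelihood test). CD79B, part of the B cell receptor's signalling pair, had 23.6 ± 2.19 CPM in gFBXW7 and 18.4 ± 5.59 in gLuc, a difference of 0.36 (SE 0.32) that did not pass.

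Lists of XBP1 targets and of partners of the factors were read in the same way, against the same background. Of 30 genes of the XBP1 and IRE1 branch 29 were tested, with medians of −0.10, −0.04 and 0.10 in the 3 comparisons in the same order, and 0 passed. PDIA6, a protein disulfide isomerase, had the lowest value against gFBXW7 at −0.39 (SE 0.20), and EDEM2, which marks misfolded glycoproteins for disposal, the highest between gFBXW7 and gLuc at 0.34 (SE 0.12). Of 27 corepressors and cofactors through which BCL6, PRDM1 and Ikaros proteins act, 26 were tested, with medians of −0.05, −0.08 and 0.02, and 0 passed. SUV39H1, a histone H3 lysine 9 methyltransferase, had the lowest value against gFBXW7 at −0.28 (SE 0.12). Of 14 genes of the cereblon ligase and its drug-directed substrates, 12 were tested, with medians of 0.04, 0.00 and −0.02, and 0 passed; IKZF1 and IKZF3, the substrates best known in myeloma, are described above.

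Among 41 other lymphoid transcription factors, 35 were tested and 0 passed, with medians of 0.16, 0.01 and −0.07. MYC, an IRF4 target in myeloma, was the most abundant of them at a mean of 117 RPKM, followed by MEF2C at 74.2, TCF3 at 72.2, CBFB at 61.9 and RELB at 45.9. SPI1 (PU.1) and SPIC, the closest relatives of SPIB among ETS factors, had 0 counts in all 9 libraries, which allows up to 0.0174 CPM over them, so SPIB was the member of that subfamily with reads. IRF8, a B cell and myeloid relative of IRF4, had 27 counts, and POU2F2 (OCT2), a partner of POU2AF1, averaged 0.0842 RPKM. EGR1, an immediate early factor, had the highest value against gLuc, with 2.93 ± 0.972 CPM in gFBXW7_gKMT2D and 1.21 ± 0.422 in gLuc (SD, n = 3), a difference of 1.31 (SE 0.33) with an adjusted p of 0.85 in edgeR. In gFBXW7 EGR1 had 2.09 ± 0.447 CPM, and at 0.80 (SE 0.34) it was also the highest between gFBXW7 and gLuc. The lowest values were −0.35 (SE 0.21) for KLF2 against gFBXW7 and −0.40 (SE 0.40) for ETS1 against gLuc.

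Antigen presentation genes of B cells held the one gene of these lists that passed. CD74, the invariant chain of MHC class II, fell in gFBXW7_gKMT2D to 61.2 ± 0.223 CPM, from 137 ± 19.5 in gFBXW7 and 151 ± 14.5 in gLuc (SD, n = 3), log2 fold changes of −1.16 and −1.30 with an adjusted p of 0.027 and 0.013 in edgeR. The CD74 call was not kept under every setting, while its fold change stayed between −1.27 and −1.06 against gFBXW7 and between −1.38 and −1.21 against gLuc. Against gFBXW7 it passed under 6 of 17 other settings. It was lost when any library other than gFBXW7_gKMT2D 3 was left out, with an adjusted p of up to 0.24 in edgeR, and when the 6 compared libraries were fitted alone (0.2). Against gLuc it passed under 10 of 17, and it was lost without any 1 of the gLuc libraries, without gFBXW7 3 or without gFBXW7_gKMT2D 1, with an adjusted p of up to 0.12 in edgeR, and with the 6 libraries alone (0.14). All 8 tested genes of the 13 on this list had negative values in both comparisons. Their medians were −0.93 and −0.89, beside 0.02 and 0.00 over all genes. Of the 8, 1 passed, where 0.0603% and 0.0528% of all tested genes did. Because the list was chosen with earlier results of these data known, these values describe it and do not test it. Of the 13 genes, 6 averaged under 0.1 RPKM. Among those tested, HLA-DPB1 and HLA-DRB5 had only 91 and 101 counts in all. CIITA, the coactivator of MHC class II transcription that PRDM1 represses, had 8.25 ± 1.29 CPM in gFBXW7_gKMT2D, 11.3 ± 1.32 in gFBXW7 and 13.5 ± 3.14 in gLuc, differences of −0.45 and −0.71 that did not pass.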

How the data were processed

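The deposited table gave, per gene and library, read counts and RPKM for all 9 libraries. Per the submitters' processing notes, reads were handled with Trimmomatic, STAR, featureCounts and DESeq2 on GRCh38; versions, settings and annotation are not given in the sources used here. The authors' deposited counts are whole numbers, and the deposited RPKM values were recomputed from counts and gene lengths to within a relative difference of 8.5e-07. An unnamed row of totals was left out of library sizes and tests; 12580 of 38478 gene rows had no read and 28 carried a number in place of a symbol. Counts were tested with edgeR 4.0.16 (R 4.3.3): filterByExpr by group, TMM scaling, quasi-likelihood test over all 9 libraries with group as the only term, Benjamini-Hochberg adjustment over 13262 genes and a threshold of 0.05. CPM used TMM-scaled library sizes, and log2 CPM a prior count of 2. Standard errors are the fold change over the root of F, and 95% intervals use the fit's degrees of freedom. The test was run on simulated counts first. A permutation test of 3 against 3 libraries cannot go below p = 0.1 and was not used. Alternatives were DESeq2 1.42.0, other scalings, no filter, sva 3.50.0, a replicate block, single libraries left out and, chosen after seeing the data, removal of a gene length trend. Library totals of 16337492 to 27076242 counts set the precision; Poisson intervals and the floor of 3 counts cover counting error only. The labels call replicates independent without saying what differed between cultures. Deviations of same-numbered libraries correlated between −0.59 and 0.45, and in no comparison were all 3 correlations over 0.1, so numbers were not used as pairs. Gene coordinates are from GENCODE on GRCh38. The 10 factors and the 8 gene lists were chosen with earlier results of these data known. Named genes were the 10 factors, FBXW7 and KMT2D, cell type markers, in each list every gene that passed and those with the highest and lowest fold change in a comparison, and the most abundant other lymphoid factors; of these a selection is printed. Values of 2 marker genes are not reported here.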

Additional observations from a re-analysis of the deposited data

How the results depend on the processing

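The number of genes that passed depended on the setting. In gFBXW7_gKMT2D against gFBXW7 (8 genes) it was 5 with upper quartile scaling, 33 without the filter, 31 with DESeq2, 0 when the 6 compared libraries were fitted alone, 125 with 1 surrogate variable, 5 with the gene length trend removed, and 0 to 7 when single libraries were left out. Against gLuc (7 genes) it was 21 without the filter, 21 with DESeq2, 2 with 6 libraries alone, 54 with 1 surrogate variable and 2 to 8 with single libraries left out. Between gFBXW7 and gLuc DESeq2 called 1 gene where edgeR called 0. With the replicate number as a block, 2 genes passed against gFBXW7 and 2 against gLuc, SPIB had an adjusted p of 0.20 and 0.35, and CD74 one of 0.11 and 0.085 (settings for CD74 were chosen after seeing the data); same-numbered libraries share only a number, and their deviations correlated between −0.59 and 0.45. Of 458 values of the factors under alternatives, 417 kept direction and call, 17 (XBP1 between gFBXW7 and gLuc, with a main value of 0.00) ran from −0.12 to 0.11 and did not pass, 6 (SPIB without the filter, with DESeq2 and with 1 surrogate variable, in both comparisons of gFBXW7_gKMT2D) passed the threshold newly, and 18 turned sign, all from main values of at most 0.15. Leaving out single libraries gave, against gFBXW7, −0.30 to 0.25 for IRF4, −0.26 to 0.01 for POU2AF1, −0.23 to 0.33 for IKZF1, −0.20 to 0.11 for IKZF3 and −0.33 to 0.34 for BCL6; against gLuc, −0.27 to 0.05 for IKZF3 and −0.09 to 0.22 for BACH2; between gFBXW7 and gLuc, −0.25 to 0.01 for POU2AF1. With the length trend removed, IKZF1 was −0.01 against gFBXW7, IKZF3 0.04 against gLuc, and IKZF3 0.07 and BACH2 0.01 between gFBXW7 and gLuc. The cause of these changes was not tested. Of 357 list medians, 321 stayed within the spread and 36 moved. Depth limits BCL6 and PAX5 most, with 91 and 11 counts in all.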
